A study of Mus musculus with 16 samples.

Results

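The genes studied encode enzymes that build nucleotides and polyamines, measured in cell lines of mouse small cell lung cancer, a lung tumour with neuroendocrine features. All probe sets that the platform annotation gives to 10 listed genes were taken: Ppat, Gart, Pfas, Paics, Adsl, Atic and Impdh2 of the purine route, Cad and Umps of the pyrimidine route, and Odc1 of the polyamine route. Of these genes, 7 had a named probe set, which gave 17 of the 22690 probe sets, or 7 of the 12393 genes named on the array; a probe set is a group of short probes read together as 1 value. Atic, Pfas and Impdh2 had no named probe set and were not analysed here. All 17 probe sets exceeded log2 4 on at least 2 arrays, the filter used for the 15799 probe sets tested.

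There were 16 arrays from 2 lines, 3583T3 and 3151T4, each grown from a single dissociated tumour; the genotype and age of the mice are not given in the sources used here. Each line was measured as untransfected cells (control) and after stable transfer of 1 vector, for Nfib or for Mycl1, or of both vectors (Nfib+Mycl1); there were 2 arrays for each line and vector, 4 for each vector over both lines. Nfib is one of the nuclear factor I transcription factors, its product carried a FLAG tag, and its vector had a neomycin resistance gene selected with G418. Mycl1 (L-Myc, current symbol Mycl) is a MYC family factor, and its vector had a puromycin resistance gene selected with puromycin. Both were MSCV retroviral vectors with a Kozak sequence before the start codon and the resistance gene behind a PGK promoter. Since control cells had no vector, every comparison with control adds vector and selection to the transgene, and these cannot be told apart. The 3 comparisons with control share the same 4 control arrays.

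Purine rings are assembled stepwise on a ribose phosphate: Ppat commits the sugar to the route, Gart, Pfas, Paics, Adsl and Atic add and close the rings, and Impdh2 leads from the product to guanine nucleotides. Pyrimidine rings are made by Cad, which starts the route, and finished as UMP by Umps. Odc1 makes putrescine from ornithine, the first step towards the polyamines, and Odc1 and Cad are textbook targets of MYC proteins, which bind the DNA letters CACGTG (the E-box).

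Promoter letters are shown for 5 of the genes because the E-box is the site named for MYC proteins: the 3 whose window holds it, and Gart and Umps, whose signal was higher with Mycl1. RefSeq (GRCm38.p6) windows of 300 bases were at hand for 9 of the 10 genes. They ran from 250 before to 50 after the gene's start, except for Cad and Odc1. Only 90 bases of the Cad window and 185 of the Odc1 window lay before the gene's start, and the rest lay within the gene. CACGTG, whose reverse complement is itself, occurred in 3 of these 9 windows (33.3%), those of Paics, Atic and Impdh2. It occurred in 7.15% of all 32851 windows and in 9.94% of the 9229 windows of genes with a tested probe set. The next lines give, 5′ to 3′ on the gene's strand with CACGTG in capitals, 30 bases around it for Paics (chr5:76951087-76951116, plus strand), Atic (chr1:71557126-71557155, plus strand) and Impdh2 (chr9:108560314-108560343, plus strand), and the 250 bases before the start of Gart (chr16:91646973-91647222, minus strand) and Umps (chr16:33967039-33967288, minus strand), which hold none.
Paics: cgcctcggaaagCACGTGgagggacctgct
Atic: gaggaggggcgggacctcggggtCACGTGg
Impdh2: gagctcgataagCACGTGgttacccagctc
Gart: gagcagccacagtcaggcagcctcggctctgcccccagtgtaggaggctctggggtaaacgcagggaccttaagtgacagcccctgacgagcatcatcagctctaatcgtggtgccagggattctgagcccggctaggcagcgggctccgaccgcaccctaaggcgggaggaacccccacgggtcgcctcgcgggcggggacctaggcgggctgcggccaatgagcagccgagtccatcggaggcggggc
Umps: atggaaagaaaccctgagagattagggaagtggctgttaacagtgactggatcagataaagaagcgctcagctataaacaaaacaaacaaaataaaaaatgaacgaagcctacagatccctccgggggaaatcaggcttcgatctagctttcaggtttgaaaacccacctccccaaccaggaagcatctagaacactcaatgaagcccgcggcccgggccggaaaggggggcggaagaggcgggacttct
The E-box began 203 bases before the start of Paics, 7 before that of Atic and 110 before that of Impdh2. Paics and Ppat are neighbours read in opposite directions with overlapping 5′ ends, so the stretch shown for Paics also lies within Ppat. The windows of Ppat, Gart, Adsl, Cad, Umps and Odc1 did not hold these letters, and sequence outside the windows was not searched. A match is a description of the window and not a bound site.

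Of the 3 Mycl probe sets, only 1422087_at rose with the Mycl1 vector, and it was taken to read the transgene. Probe set 1422088_at did not exceed 2.52 on any array. Probe set 1434777_at changed by -0.84 ± 0.66 (SE) with Mycl1 versus control. Why the Mycl probe sets differ was not tested, and the check of labels by Mycl signal rests on 1422087_at alone. The log2 signal of 1422087_at was 2.24 to 2.47 on the 4 control arrays and 9.08 to 10.82 on the 4 arrays labelled Mycl1. It was 2.28 and 10.22 on the arrays labelled 3583T3 Nfib, replicates 1 and 2, and 11.05 and 2.67 on those labelled 3583T3 Nfib+Mycl1, so 2 arrays (replicate 2 of each) went against their label. Over all probe sets tested, the array nearest by correlation to 3583T3 Nfib replicate 1 was 3583T3 Nfib+Mycl1 replicate 2 (r = 0.9887). The array nearest to 3583T3 Nfib replicate 2 was 3583T3 Nfib+Mycl1 replicate 1 (r = 0.9904). For 12 of the 16 arrays the nearest was the replicate of the same group. An exchange of arrays was not tested. Labels were kept as given, and values without the 2 arrays against their label are given where a count or a call named here changed. None of the 4 Nfib probe sets was higher with the Nfib vector in either line beyond the test's threshold. Lower values occurred: 1448288_at changed by -0.65 ± 0.18 (SE) with Nfib versus control within 3151T4. With Nfib+Mycl1 versus control, 1427680_a_at changed by -0.44 ± 0.13. The Nfib probe sets therefore do not check the Nfib labels. The Mycn probe set 1425923_at read 2.03 to 2.56 on control arrays and 12.19 to 13.26 on all 12 arrays of cells with a vector. The other Mycn probe sets showed no such rise: over the 16 arrays 1425922_a_at read 2.94 to 3.42 and 1417155_at 2.81 to 5.39. No rise of the Mycn transcript can be drawn from probe sets that disagree. The Myc probe set 1424942_a_at fell by 1.27 ± 0.33 (SE) with Mycl1 versus control (adjusted p = 0.0303 by limma). Its change was -1.13 ± 0.45 within 3583T3 and -1.42 ± 0.45 within 3151T4. With Nfib+Mycl1 versus control it was -0.33 ± 0.33. The mean of 15 leukocyte markers was 6.45 to 8.41 in control cells and 2.86 to 3.77 with any vector, and that of 11 cell cycle genes was 11.25 to 11.47 in control cells and 11.35 to 11.61 with a vector. Of the neuroendocrine markers, Chga, Chgb, Syp and Scg3 did not exceed log2 4 on any array, while Ncam1 and Uchl1 did on all 16; the mean of 10 fibroblast markers was 7.22 to 8.87 in control cells, 9.15 to 10.62 with Nfib, 7.72 to 7.89 with Mycl1 and 8.81 to 9.30 with Nfib+Mycl1. In such bulk samples, fewer cells of a type and less RNA per cell cannot be told apart, and the part of other cells in the results below was not tested.

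With the Mycl1 vector, the genes of the purine enzyme Gart, the pyrimidine enzymes Cad and Umps, Adsl and Odc1 gave a higher signal than in control cells, by 1.37- to 2.51-fold where called, while the 3 Paics probe sets differed from control by at most 0.15 on the log2 scale. With the Nfib vector alone no member probe set passed the test with all arrays, over both lines or within either line. Calls within 3151T4 differed without the 2 arrays against their label, as given below beside the share over all probe sets. Levels are log2 signals, and changes are log2 differences with their standard error (SE) from limma fitted over all probe sets, with Benjamini-Hochberg adjustment over the 15799 tested; a probe set was called at an adjusted p under 0.05. In Mycl1 versus control, 9 of the 17 were called, 9 higher and 0 lower, against 9.96% of all probe sets tested. Their median change was 0.64, against 0.04 over all probe sets. On 12 of the 17 every Mycl1 array was above every control array, which held for 7.2% of all probe sets. In Nfib+Mycl1 versus control 7 were called higher and 2 lower, the latter both of Paics (29% of all probe sets called); 6 of 17 had every Nfib+Mycl1 array above every control array (9.94% of all).

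**Figure D1:**
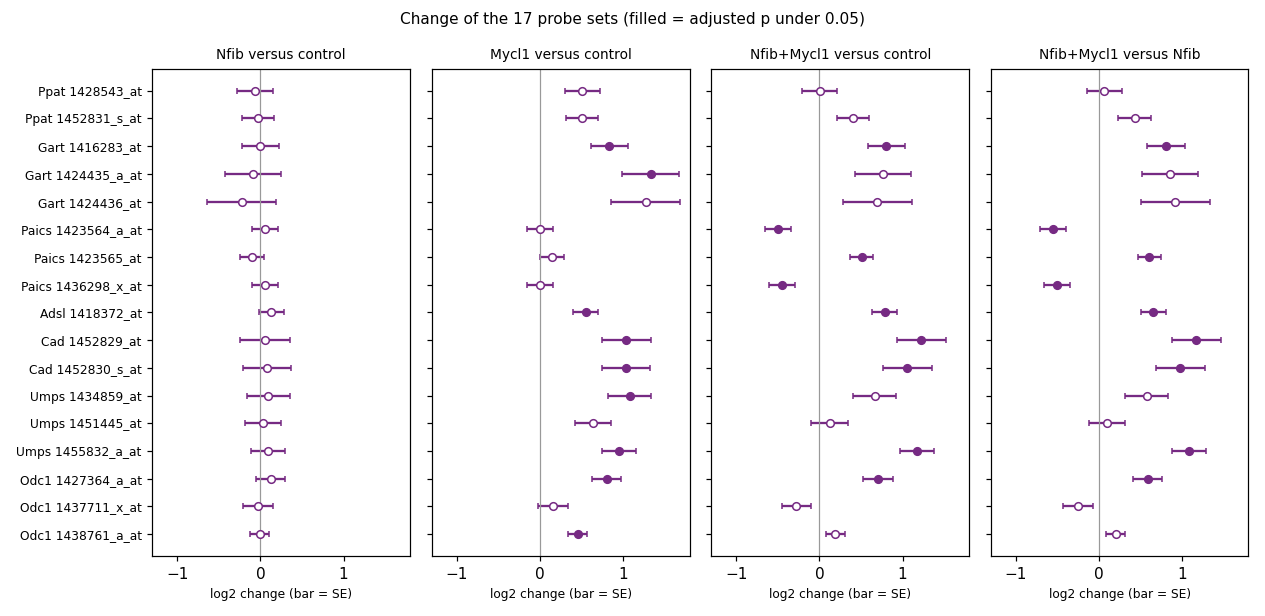
Log2 change with its SE (x axis) of each of the 17 probe sets (rows) in 4 comparisons, n = 4 arrays per vector; filled points have an adjusted p under 0.05. All 17 sit near 0 for Nfib versus control, and the Gart, Cad, Umps, Adsl and 2 of the Odc1 probe sets lie between 0.45 and 1.33 for Mycl1 versus control.

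The count in Mycl1 versus control depended on single arrays. It was 12 higher and 0 lower without the 2 arrays against their label (17.5% of all probe sets), with Gart 1424436_at, Umps 1451445_at and Ppat 1428543_at added. It was 0 without 3151T4 control replicate 4 or 3151T4 Mycl1 replicate 4, and 1 without replicate 3 of either group. Dropping replicate 1 of 3583T3 Mycl1 gave 2, and dropping either control array of that line gave 3. Whether the smaller number of arrays lowered the count was not tested. The changes themselves moved less: leaving out each array in turn kept that of Gart (1424435_a_at) between 1.20 and 1.42 and that of Cad (1452829_at) between 0.87 and 1.22. Before adjustment, 13 of the 17 had a p under 0.05.

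Of the purine genes, Gart, whose protein carries out several steps of the route, had the largest change. Its probe set 1424435_a_at read 7.41 and 7.25 in 3583T3 control, 8.66 and 8.52 in 3583T3 Mycl1, 7.14 and 7.36 in 3151T4 control, and 8.83 and 8.48 in 3151T4 Mycl1. Every Mycl1 array was thus above every control array in both lines. The change was 1.33 ± 0.34 (SE, n = 4 arrays per vector, adjusted p = 0.0289), or 2.51-fold. The other Gart probe sets changed by 0.83 ± 0.22 (1416283_at, adjusted p = 0.0326) and 1.27 ± 0.42 (1424436_at, adjusted p = 0.0625), the latter without passing the test. On the arrays labelled Nfib, 1424435_a_at read 7.28 and 8.52 in 3583T3 and 6.55 and 6.45 in 3151T4. On those labelled Nfib+Mycl1 it read 8.51 and 7.34 in 3583T3 and 8.16 and 8.21 in 3151T4. In 3583T3 the replicates of both groups therefore lay apart, the 8.52 beside the Mycl1 arrays and the 7.34 beside the controls, and these are the 2 arrays whose Mycl signal went against the label. In 3151T4 the 2 Nfib arrays were the lowest of the series on this probe set. On 1416283_at the 3151T4 means lay close together, 8.77 in control and 8.70 with Nfib.

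Adsl, which acts both in the purine route and in making AMP, read 9.87 and 10.08 in 3583T3 control, 10.57 and 10.40 with Mycl1, and 10.80 and 10.56 with Nfib+Mycl1. In 3151T4 it read 9.95 and 10.10 in control, 10.53 and 10.69 with Mycl1, and 11.13 and 10.65 with Nfib+Mycl1. No Mycl1 or Nfib+Mycl1 array overlapped the controls. It rose by 0.55 ± 0.15 with Mycl1 (adjusted p = 0.0359) and by 0.79 ± 0.15 with Nfib+Mycl1 (adjusted p = 0.0026). Unlike Gart, the array labelled 3583T3 Nfib+Mycl1 replicate 2, with low Mycl signal, kept a level of 10.56, above all controls. Ppat, the committing enzyme, missed the test with both probe sets at the same size of change: 0.51 ± 0.21 (1428543_at, adjusted p = 0.125) and 0.51 ± 0.19 (1452831_s_at, adjusted p = 0.0986). For 1452831_s_at the 4 control arrays lay between 10.27 and 10.71 and the 4 Mycl1 arrays between 10.83 and 11.33, with no overlap; for 1428543_at they overlapped. Without the 2 arrays against their label, 1428543_at was called (0.51 ± 0.15, adjusted p = 0.0305) and 1452831_s_at was not (adjusted p = 0.0519).

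**Figure D2:**
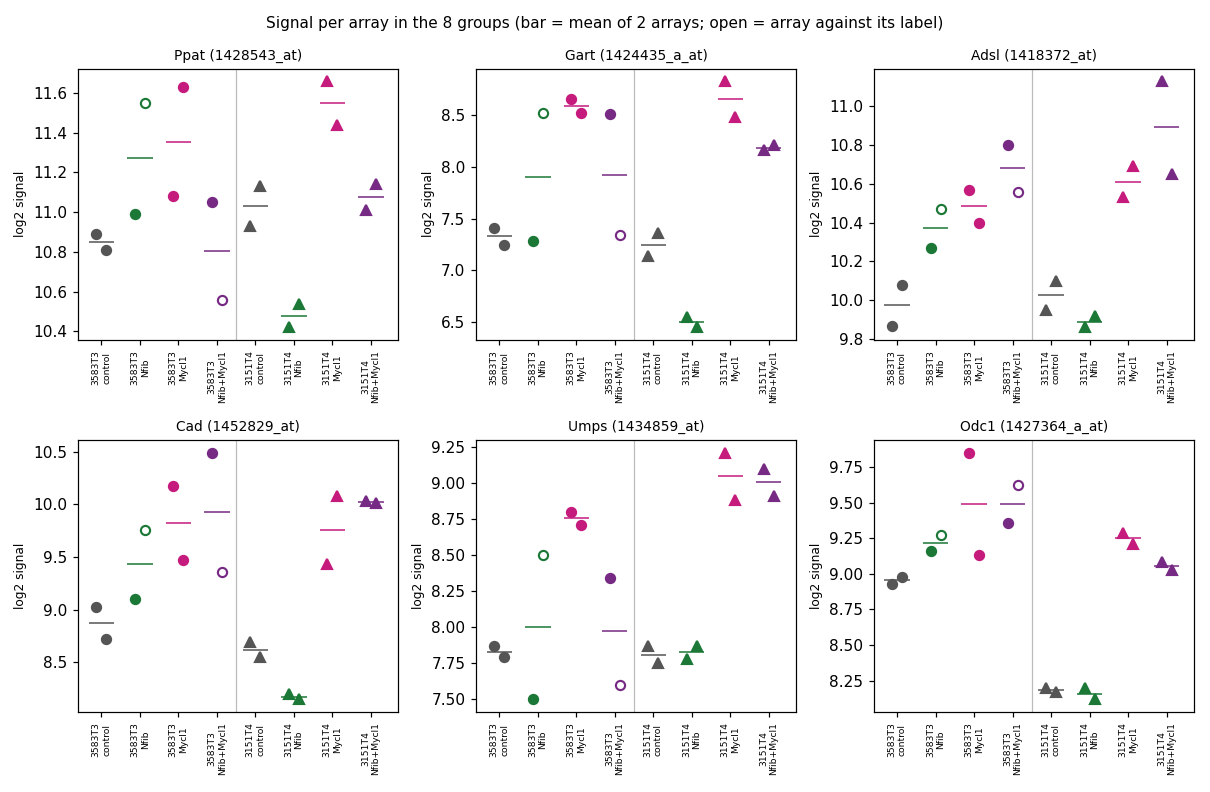
Log2 signal (y axis) of 1 probe set for each of 6 genes on all 16 arrays in the 8 groups of line and vector (x axis); bars are means of 2 arrays, and open symbols are the 2 arrays whose Mycl signal went against the label. In 3151T4 the Mycl1 and Nfib+Mycl1 arrays of Gart, Cad and Umps lie above the control and Nfib arrays. In 3583T3 the open symbols of Gart and Umps lie apart from the replicate of their group. Those of Cad (9.10 and 9.76 with Nfib) and Ppat (10.99 and 11.55) do so too, though their 3583T3 Mycl1 replicates also differ. For Adsl (10.27 and 10.47 with Nfib) and Odc1 (9.16 and 9.27) they lie close to it.

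Paics, which fuses a pair of consecutive steps of the purine route in 1 protein, did not give 1 answer. Its probe sets 1423564_a_at and 1436298_x_at fell with Nfib+Mycl1 versus control, by 0.50 ± 0.16 (adjusted p = 0.029) and 0.45 ± 0.16 (adjusted p = 0.0428), while 1423565_at rose by 0.51 ± 0.14 (adjusted p = 0.0168). The 4 control arrays of 1423564_a_at read 12.11, 11.76, 11.98 and 12.27 and the 4 Nfib+Mycl1 arrays 11.48, 11.33, 11.56 and 11.76. Those of 1423565_at read 11.54, 12.09, 11.70 and 11.45 in control and 12.40, 12.36, 12.15 and 11.89 with Nfib+Mycl1. The first of these pairs of groups touched at 11.76, to the rounding shown, and the second overlapped through a single control array at 12.09. No direction for the Paics transcript can be drawn from probe sets that disagree. Without the 2 arrays against their label, only 1423565_at was called, by 0.49 ± 0.16 (adjusted p = 0.0346), and the others had an adjusted p of 0.0587 (1423564_a_at) and 0.0945 (1436298_x_at).

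The disagreement was also present between replicates of 1 group. From one replicate to the other, 1423564_a_at and 1436298_x_at moved the same way in 8 of the 8 groups, and 1423564_a_at and 1423565_at moved opposite ways in 6 of 8. The array's control probe set for the 3′ end of Gapdh, a glycolytic enzyme used to judge RNA quality, moved with 1423565_at in 6 of 8 groups and opposite to 1423564_a_at, 1436298_x_at and the Odc1 probe set 1437711_x_at in 8 of 8 each. It read 12.42 to 13.21 on control arrays and 13.06 to 13.39 on Nfib+Mycl1 arrays, and its part in the Paics result was not tested. In Mycl1 versus control the 3 Paics changes were -0.00 ± 0.16, 0.15 ± 0.14 and -0.00 ± 0.16, with adjusted p from 0.511 to 0.999. The 95% interval of the change of 1423564_a_at with Mycl1 ran from -0.34 to 0.33.

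**Figure D3:**
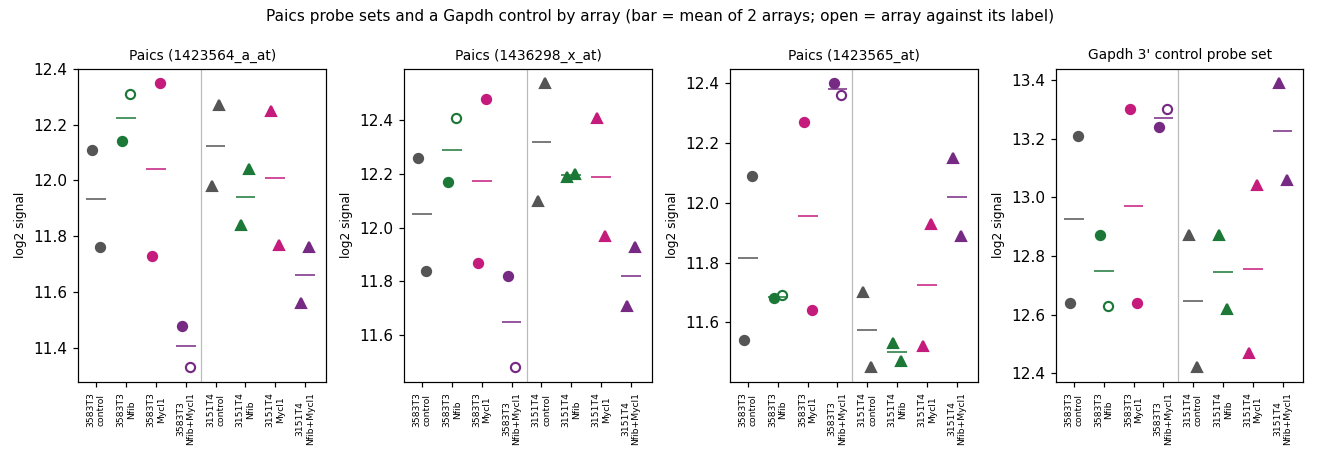
Log2 signal (y axis) of the 3 Paics probe sets and of the Gapdh 3′ control probe set on all 16 arrays in the 8 groups of line and vector (x axis); bars are means of 2 arrays, open symbols the 2 arrays against their label. Within each line the group mean is lowest in Nfib+Mycl1 in the first 2 panels and highest in Nfib+Mycl1 in the last 2.

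Both pyrimidine genes rose with Mycl1. Cad, whose protein joins the opening steps of the route, read on 1452829_at 9.03 and 8.72 in 3583T3 control and 10.17 and 9.47 in 3583T3 Mycl1. In 3151T4 it read 8.69 and 8.55 in control and 9.43 and 10.08 with Mycl1, so that no Mycl1 array overlapped the controls of either line. It rose by 1.04 ± 0.30 with Mycl1 (adjusted p = 0.0398) and by 1.23 ± 0.30 with Nfib+Mycl1 (adjusted p = 0.00822), or 2.05- and 2.34-fold. The Nfib+Mycl1 arrays read 10.49 and 9.36 in 3583T3, the 9.36 being the array with low Mycl signal, and 10.03 and 10.01 in 3151T4. The second probe set, 1452830_s_at, gave 1.03 ± 0.29 (adjusted p = 0.0383) and 1.06 ± 0.29 (adjusted p = 0.0148).

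Umps, which makes UMP, read on 1434859_at 7.87 and 7.79 in 3583T3 control, 8.80 and 8.71 in 3583T3 Mycl1, 7.87 and 7.75 in 3151T4 control, and 9.21 and 8.88 in 3151T4 Mycl1. The groups did not overlap, and the change was 1.08 ± 0.26 (adjusted p = 0.024). On the arrays labelled 3583T3 Nfib it read 7.50 and 8.50 and on those labelled 3583T3 Nfib+Mycl1 8.34 and 7.60, again with the 2 arrays against their label on the side of their Mycl signal. Probe set 1455832_a_at rose by 0.95 ± 0.21 with Mycl1 (adjusted p = 0.0168) and by 1.18 ± 0.21 with Nfib+Mycl1 (adjusted p = 0.00157). It was the only member probe set called with Mycl1 within 3583T3 alone. Probe set 1451445_at lay between 5.48 and 6.83 and missed the test with Mycl1 (0.64 ± 0.22, adjusted p = 0.0721) and with Nfib+Mycl1 (0.12 ± 0.22, adjusted p = 0.701).

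**Figure D4:**
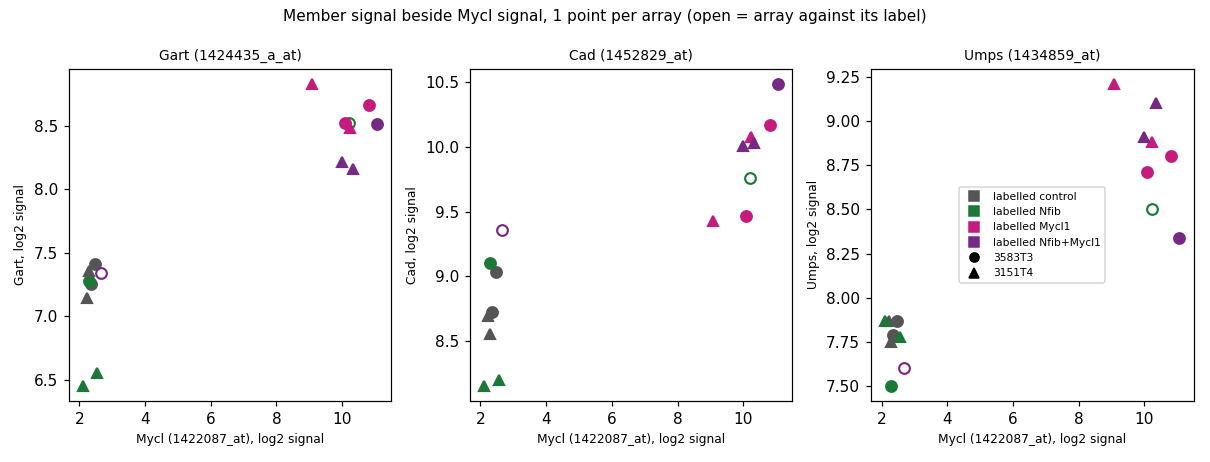
Log2 signal of a Gart, a Cad and a Umps probe set (y axis) beside that of the Mycl probe set 1422087_at (x axis), 1 point per array, coloured by the labelled vector and shaped by line; open symbols are the 2 arrays against their label. The open green point (labelled Nfib, Mycl 10.22) lies among the Mycl1 arrays for Gart and Cad, and below them for Umps. The open violet point (labelled Nfib+Mycl1, Mycl 2.67) lies among the arrays with low Mycl signal for Gart and Umps, and above them for Cad.

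Odc1, the first enzyme of polyamine synthesis, rose with Mycl1 on 2 of its 3 probe sets. On 1427364_a_at the controls read 8.93 and 8.98 in 3583T3 and 8.20 and 8.17 in 3151T4, and the Mycl1 arrays 9.85 and 9.13 in 3583T3 and 9.29 and 9.21 in 3151T4. All Mycl1 arrays were above all controls, although the lines differed in level (0.62 ± 0.13 higher in 3583T3, adjusted p = 0.000536). The change was 0.80 ± 0.18 with Mycl1 (adjusted p = 0.0185) and 0.71 ± 0.18 with Nfib+Mycl1 (adjusted p = 0.00992). The array labelled 3583T3 Nfib+Mycl1 replicate 2, with low Mycl signal, was the highest of the Nfib+Mycl1 arrays here at 9.62. Probe set 1438761_a_at rose by 0.45 ± 0.11 with Mycl1 (adjusted p = 0.0277) and changed by 0.19 ± 0.11 with Nfib+Mycl1 (adjusted p = 0.213). Probe set 1437711_x_at, between 11.69 and 12.69 on all arrays, changed by 0.16 ± 0.18 (adjusted p = 0.588) and -0.28 ± 0.18 (adjusted p = 0.253).

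In Nfib versus control 0 of the 17 were called by limma (8.46% of all probe sets), and 0 had an unadjusted p under 0.05. The changes ran from -0.22 (Gart 1424436_at, 95% interval -1.11 to 0.66) to 0.13 (Adsl, 95% interval -0.19 to 0.45), and these intervals leave room for changes of that size in either direction. The count was 0 in each of the 26 other fits, which include leaving out each array and, with 7.89% of all probe sets called, both arrays against their label. The signs differed between the lines. In 3583T3 16 of the 17 changes were above 0, with a median of 0.27, 9 probe sets had both Nfib arrays above both controls (27.3% of all) and 0 were called (8.23% of all; 2 at an unadjusted p under 0.05). In 3151T4 1 of the 17 was above 0, with a median of -0.16, 10 had both Nfib arrays below both controls (27.7% of all) and 0 were called (11.8% of all; 2 at an unadjusted p under 0.05). The difference between the lines was called for 0 of the 17 (5.61% of all), with 5 at an unadjusted p under 0.05; the smallest adjusted p was 0.0975, for Ppat 1428543_at.

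The array labelled 3583T3 Nfib replicate 2 entered these values. Without it and its counterpart, the 3583T3 Nfib changes rested on a single array, assumed to vary like the other groups, and 11 of 17 were above 0 with a median of 0.10. In 3151T4, 2 of 17 were then called lower (15.5% of all probe sets), both of Gart: 1424435_a_at fell by 0.75 ± 0.19 (adjusted p = 0.0138), and 1424436_at fell by 0.95 ± 0.22 (adjusted p = 0.0084). The other 15 were not called, and the estimates for 3151T4 were the same as with all arrays; what changed was the pooled spread. When 3583T3 Nfib replicate 1 alone was left out, the difference between lines was called for 3 of the 17 probe sets (7.93% of all).

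Within the lines, Mycl1 versus control gave 11 calls of 17 in 3151T4, 11 higher and 0 lower (15.1% of all probe sets), and 1 higher in 3583T3 (2.39% of all). The median change was 0.85 in 3151T4 and 0.54 in 3583T3, where 17 of 17 changes were above 0 and 11 had an unadjusted p under 0.05. The difference between the lines itself was called for 0 of 17 (1.43% of all), with 1 at an unadjusted p under 0.05, so the unequal counts do not show unequal responses. Nfib+Mycl1 versus control gave 9 higher in 3151T4 (28.1% of all) and 2 higher in 3583T3, of Adsl and Umps (11.1% of all), with 0 called for the difference (4.94% of all; 1 at an unadjusted p under 0.05). Without the 2 arrays against their label, the 3583T3 counts were 7 for Mycl1 (9.1% of all) and 7 for Nfib+Mycl1 (17.5% of all), and those of 3151T4 were 11 (21.2% of all) and 10 (32.1% of all). Between the lines over all vectors, 3 of the 17 probe sets were higher in 3583T3 and 0 lower, of Paics (1423565_at, by 0.25 ± 0.10, adjusted p = 0.0414) and Odc1 (1427364_a_at and 1438761_a_at), against 58.1% of all probe sets called. With the 2 arrays left out, 4 were higher and 2 lower (57.2% of all). Paics 1423565_at was then no longer called (adjusted p = 0.0799), Gart 1424436_at and Cad 1452829_at joined the Odc1 probe sets as higher in 3583T3, and Umps 1434859_at and 1455832_a_at were lower there, with differences of -0.28 ± 0.11 and -0.32 ± 0.11 (adjusted p = 0.0455 and 0.0292).

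The last comparisons set the vectors against each other. They too differ in resistance gene and selection, which cannot be told apart from the transgene. Mycl1 versus Nfib called 9 of 17, 9 higher and 0 lower (19.9% of all probe sets), and 13 higher without the 2 arrays (27.5%). Nfib+Mycl1 versus Nfib, where the Mycl1 vector is added to Nfib cells by label, called 7 higher and 2 lower (15.3%), the lower ones both of Paics. Without the 2 arrays it called 12 higher and 0 lower (25.5%); Cad 1452829_at then rose by 1.69 ± 0.23 (adjusted p = 0.000509) and Gart 1424435_a_at by 1.54 ± 0.19 (adjusted p = 0.000312), against 1.17 ± 0.30 (adjusted p = 0.0213) and 0.86 ± 0.34 (adjusted p = 0.0935) with all arrays. Nfib+Mycl1 versus control without the 2 arrays called 10 higher and 0 lower (32.7%), with Gart 1424435_a_at at 1.04 ± 0.18 (adjusted p = 0.000985). Nfib+Mycl1 versus Mycl1, where Nfib is added to Mycl1 cells, called 0 of 17 by limma (2.96%), with 7 at an unadjusted p under 0.05 and changes from -0.57 to 0.36. That count was 0 without the 2 arrays (2.2%) and 1 without 3583T3 Mycl1 replicate 1.

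Neighbouring steps of the same pathways were described by 6 lists. Of all probe sets, 8.46% were called with Nfib, 9.96% with Mycl1 and 29% with Nfib+Mycl1 versus control, and 7.89%, 17.5% and 32.7% without the 2 arrays against their label; a list's count near that share is not a result about the list. Of 10 genes that supply the purine route with PRPP, its sugar donor, or carry its products to nucleotides, 3 were higher and 0 lower with Mycl1, with a median change of 0.39. Impdh1, the sister enzyme of Impdh2, rose by 0.91 ± 0.23 (adjusted p = 0.0278), Prps1, which makes PRPP, by 0.75 ± 0.18 (adjusted p = 0.0253) and Nme1, a nucleoside diphosphate kinase, by 0.41 ± 0.12 (adjusted p = 0.0445). Prpsap2, a PRPP synthetase partner, changed by 0.44 ± 0.16 with Mycl1 (adjusted p = 0.0865) and rose with Nfib and with Nfib+Mycl1, by 0.55 ± 0.16 (adjusted p = 0.0454) and 0.88 ± 0.16 (adjusted p = 0.00188). With Nfib+Mycl1, 6 of the 10 were higher and 1 lower. These counts were the same without the 2 arrays for Mycl1 and for Nfib+Mycl1, but Prpsap2 was not called with Nfib (0.45 ± 0.17, adjusted p = 0.125).

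Of 10 further pyrimidine, thymidylate and deoxynucleotide genes, 2 were higher and 0 lower with Mycl1 (median 0.12). They were Dhodh, the mitochondrial enzyme between Cad and Umps, by 0.76 ± 0.16 (adjusted p = 0.0162), and Dut, which clears dUTP, by 0.43 ± 0.13 (adjusted p = 0.0484). Dhodh also rose with Nfib alone, by 0.61 ± 0.16 (adjusted p = 0.0304), a call lost without the 2 arrays (0.49 ± 0.16, adjusted p = 0.0718). Tyms, which makes thymidylate, was called only with Nfib+Mycl1 among the comparisons with control (0.56 ± 0.19, adjusted p = 0.0397; without the 2 arrays 0.56 ± 0.22, adjusted p = 0.0647), and Ctps2, a CTP synthetase, changed by -0.36 ± 0.15 with Mycl1 (adjusted p = 0.119).

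Of 9 genes of folate and serine one-carbon supply, which feeds carbon to purines and thymidylate, 2 were higher and 0 lower with Mycl1 (median 0.25). They were Shmt1, a serine hydroxymethyltransferase, by 1.21 ± 0.27 (adjusted p = 0.019), and Mthfd1 by 0.58 ± 0.18 (adjusted p = 0.0498). Shmt1 read 7.25 to 7.47 on the 4 control arrays, and its 12 arrays with a vector read 7.89 to 9.10, without overlap. It rose with Nfib too, by 0.98 ± 0.27 (adjusted p = 0.0341). Mthfd2, the mitochondrial relative of Mthfd1, changed by 0.25 ± 0.18 with Mycl1 (adjusted p = 0.378), and Phgdh, which opens serine synthesis, by 0.25 ± 0.15 (adjusted p = 0.26) with Mycl1 and 0.70 ± 0.15 (adjusted p = 0.00418) with Nfib+Mycl1. The list had 3 higher with Mycl1 when the 2 arrays were left out, the added gene being Shmt2, and 5 higher with Nfib+Mycl1 in place of 3, with 0 lower in both.

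Of 7 other polyamine genes tested, 0 were higher and 1 lower with Mycl1 (median 0.02; 4 at an unadjusted p under 0.05). The gene called was Arg1, an arginase that releases ornithine and is abundant in some macrophages. It read 8.81 and 9.66 in 3583T3 control, 5.38 and 4.78 in 3151T4 control and 2.81 to 3.62 on all 12 arrays with a vector, and fell with every vector, with Mycl1 by 3.85 ± 0.72 (adjusted p = 0.00871). The mean of the leukocyte markers, given above, was likewise highest in control cells. Single markers differed: Cd14 averaged 6.33 to 8.46 over the 8 groups, and in 3151T4 Cd53 averaged 8.46 with Nfib and 7.93 in control, and Cd74 8.57 and 8.95. Their part in the Arg1 result was not tested. Srm, which makes spermidine, changed by 0.57 ± 0.18 with Mycl1 (adjusted p = 0.0583) and rose by 0.79 ± 0.18 with Nfib+Mycl1 (adjusted p = 0.00688). Sat1, which acetylates polyamines for breakdown or export, fell with Nfib and with Nfib+Mycl1, by 0.80 ± 0.19 (adjusted p = 0.0145) and 0.98 ± 0.19 (adjusted p = 0.00248), and Oaz1, the antizyme that sends the Odc1 protein to degradation, changed by 0.02 ± 0.08 with Mycl1 (adjusted p = 0.898). Leaving out the 2 arrays gave 1 higher and 2 lower with Mycl1: Srm rose (0.57 ± 0.17, adjusted p = 0.0322), and Sat1 joined Arg1 as lower (-0.45 ± 0.12, adjusted p = 0.0245).

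Of 10 salvage genes, which reuse bases and nucleosides, 0 were called with Mycl1 by limma, with 3 at an unadjusted p under 0.05 and a median change of 0.01. Hprt changed by 0.02 ± 0.14 (adjusted p = 0.953) and Aprt by 0.40 ± 0.13 (adjusted p = 0.0609); without the 2 arrays against their label the count was 0 as well. With Nfib+Mycl1, 3 rose, Hprt, Aprt and the uridine-cytidine kinase Uck2, by 0.41 to 0.67, and the deoxycytidine kinase Dck fell by 0.66 ± 0.20 (adjusted p = 0.0239). When the 2 arrays were left out, 2 rose and 0 fell: Hprt (adjusted p = 0.0685) and Dck (-0.50 ± 0.20, adjusted p = 0.0647) were no longer called. Of 10 breakdown genes 1 was higher and 0 lower with Mycl1, with a median change of -0.36. It was Ada, adenosine deaminase, by 0.79 ± 0.16 (adjusted p = 0.0131), and it rose with Nfib and Nfib+Mycl1 as well, by 1.05 ± 0.16 (adjusted p = 0.000827) and 1.47 ± 0.16 (adjusted p = 5.78e-05). Upp1, a uridine phosphorylase, fell with Nfib by 0.59 ± 0.17 (adjusted p = 0.047), Ampd3, an AMP deaminase, fell with Nfib+Mycl1 by 1.02 ± 0.20 (adjusted p = 0.00263), and Nt5c2, a nucleotidase, changed by 0.40 ± 0.18 with Mycl1 (adjusted p = 0.155). Upp1 was not called with Nfib without the 2 arrays (-0.63 ± 0.18, adjusted p = 0.0514), where the list went from 2 higher and 1 lower to 1 higher and 0 lower, and with Nfib+Mycl1 it went from 1 higher and 2 lower to 1 higher and 4 lower.

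**Figure D5:**
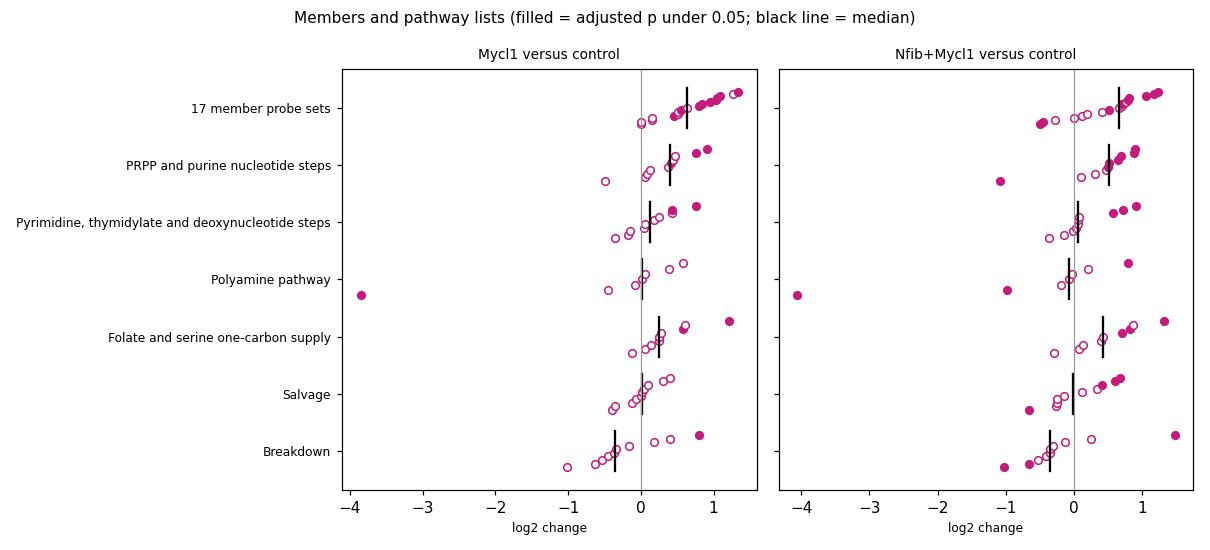
Log2 change (x axis) of the 17 member probe sets and of the genes of the 6 pathway lists (rows) in 2 comparisons with control, n = 4 arrays per vector; filled points have an adjusted p under 0.05 and black lines mark medians. In Mycl1 versus control the medians run from 0.64 for the members to -0.36 for the breakdown genes, and the point near -3.85 is Arg1.

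For each of the 7 genes the brightest probe set was scaled over the 16 arrays and the average taken as the members' profile. For Paics and Odc1 these were 1436298_x_at and 1437711_x_at, which were not called with Mycl1 and moved opposite to the Gapdh control between replicates, so the profile rests in part on them. It was lowest on the arrays of 3151T4 Nfib (-1.11 and -0.87) and highest on 3583T3 Mycl1 replicate 2 (0.84) and 3151T4 Mycl1 replicate 3 (0.80). Of 8635 other genes, the nearest by Pearson correlation over the 16 arrays was Shmt2 (r = 0.965), the mitochondrial serine hydroxymethyltransferase, ahead of Tasor2 (0.940), Strap (0.936), Riox2 (0.932) and Polr3a (0.927). These are descriptions over arrays that share lines and vectors. The changes of these 5 genes with Mycl1 were 0.40 to 0.60, with adjusted p from 0.0709 to 0.177, so none of them was called in that comparison with all arrays; without the 2 arrays against their label, Shmt2, Tasor2, Strap and Riox2 were called higher (adjusted p from 0.004 to 0.0267) and Polr3a was not (adjusted p = 0.0598).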

How the data were processed

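The authors deposited log2 signals, 1 per probe set on each array. Per the submitters' processing notes they used R 2.11.0 and GCRMA 2.20.0, a method that removes background by probe sequence, quantile-normalizes and summarises probes. The log2 scale was inferred from the values (0.48 to 14.4). The RNA was total RNA, of which 100 ng was amplified and biotin-labelled, per the labels' protocols. Probe sets took names from the platform annotation: 20380 had 1 symbol, 691 several, 1555 none and 64 were controls, left out of the tests; 20351 of the 20380 matched the reference by gene number.

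Groups came from sample titles. limma 3.58.1 in R 4.3.3 (lmFit, eBayes with trend) was fitted over all 16 arrays, with vector and line as terms (11 residual degrees of freedom), or 8 group means within lines (8 residual degrees of freedom). Adjusted p-values are Benjamini-Hochberg over 15799 probe sets. Tested on simulated data for Mycl1 versus control over 15799 probe sets, the fit called 80% of those changed by 1 on the log2 scale. The simulated noise was normal, with no difference between the lines in level or response and no array against its label. The share therefore need not hold for the real arrays. Nothing says that replicates were separate cultures, so the p-values cover the spread between these arrays alone, possibly a technical one, and the number of arrays limits precision.

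Members, lists, markers and tests were chosen with earlier results of these data known. Named genes were every member probe set, up to 4 genes per list with the smallest p in Mycl1 versus control among those called in any comparison of vectors, the 5 genes most like the members' profile, and all Mycl, Myc, Mycn and Nfib probe sets. The members' profile used 7 genes, since the other 3 had no probe set. Alternatives were other filters, 1 probe set per gene, other normalizations, no trend, a replicate block, averaged replicates, 8 means, and arrays left out.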

Additional observations from a re-analysis of the deposited data

Results flagged for a closer look

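In 80 groups of 4 arrays with the same vector, over the 17 member probe sets and the 3 Mycl probe sets, a single array stood far from the other arrays in 3. Chance gives about 1 in 20 groups if the 4 arrays are alike and the groups independent. Each group here pools 2 lines and the groups share arrays, so the count of 3 cannot be set against that rate. It also says nothing about the size of a single gap. The array labelled 3583T3 Nfib replicate 2 read 10.22 on Mycl 1422087_at, against 2.12 to 2.55 on the other Nfib arrays. The array labelled 3583T3 Nfib+Mycl1 replicate 2 read 2.67 on it, against 9.99 to 11.05. On Paics 1436298_x_at, the array labelled 3583T3 Nfib replicate 2 read 12.41, against 12.17 to 12.20.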

How the results depend on the processing

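Counts of called member probe sets are given; they are of 17 probe sets, or of 7 genes where 1 probe set per gene was used. With 1 probe set per gene they were 4 (Mycl1 versus control), 5 (Nfib+Mycl1 versus control), 5 (Nfib+Mycl1 versus Nfib), 3 (Mycl1 versus Nfib), 0 (between lines), and 4 and 4 within 3151T4 (Mycl1, Nfib+Mycl1). With replicates averaged they were 0, 1, 0 and 0 in the first 4. With no filter, and with a second quantile normalization, Mycl1 versus control within 3151T4 gave 7 and 7. Without the 2 arrays against their label, the counts were 6 between lines (4 higher and 2 lower in 3583T3), 7 and 7 within 3583T3 and 2 for Nfib within 3151T4. Replicate numbers were not used to pair the samples in the main fits. Same-numbered arrays of 2 groups of a line deviated together with a correlation over 0.1 in 5 of 12 pairs (-0.72 to 0.286). The -0.72 was between 3583T3 Nfib and 3583T3 Nfib+Mycl1, the groups of the 2 arrays against their label. The range therefore does not settle whether replicates were paired. With the replicate block the counts were 3 (Mycl1 versus control), 4 (Nfib+Mycl1 versus Nfib), 0 and 1 within 3583T3 (Mycl1, Nfib+Mycl1) and 6 (Mycl1 within 3151T4), and the block moved no other count by over 1.5 times.

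Leaving out each array in turn gave 0 to 12 (Mycl1 versus control), 5 to 11 (Nfib+Mycl1 versus control, 5 without 3151T4 Nfib+Mycl1 replicate 3), 0 to 1 (Nfib+Mycl1 versus Mycl1), 0 to 11 (Nfib+Mycl1 versus Nfib), 2 to 13 (Mycl1 versus Nfib), 2 to 5 (between lines, 5 without 3583T3 Nfib+Mycl1 replicate 2), 0 to 1, 0 to 3 and 0 to 4 within 3583T3 (Nfib, Mycl1, Nfib+Mycl1), 1 to 11 and 1 to 10 within 3151T4 (Mycl1, Nfib+Mycl1), and 0 to 3 for the Nfib difference between lines (3 without 3583T3 Nfib replicate 1). For Nfib+Mycl1 versus Nfib the count was 0 without 3151T4 Nfib replicate 4 or Nfib+Mycl1 replicate 3, and 4 without 3151T4 Nfib replicate 3, 3151T4 Nfib+Mycl1 replicate 4 or 3583T3 Nfib+Mycl1 replicate 1. For Mycl1 versus Nfib it was 3 without 3151T4 Nfib replicate 3, 2 without its replicate 4, 5 without 3151T4 Mycl1 replicate 3 and 4 without the other array of that group. Within 3583T3 the Mycl1 count moved with 14 of the 16 arrays: it was 2 without Mycl1 replicate 2, 3 without any 3583T3 Nfib or Nfib+Mycl1 array, 1 without either 3151T4 Mycl1 array and 0 without any other. The Nfib+Mycl1 count there was 0 without either control array or Nfib+Mycl1 replicate 1, and 4 without any other 3583T3 array. Within 3151T4 the Mycl1 count was 1 without control replicate 4, 3 without control replicate 3 or either Mycl1 array and 7 without either Nfib array, and the Nfib+Mycl1 count was 2 without control replicate 4 and 1 without Nfib+Mycl1 replicate 3. Fewer arrays leave a group with 1 sample, assumed to vary like the others.

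Of 44 member changes under 1120 combinations with other settings, 900 kept direction and side of the threshold, 200 lost the call, 12 gained it and 8 changed sign. The sign changes were all of Paics in Mycl1 versus control with 1 array left out: 1423564_a_at ran from -0.127 to 0.099 and 1436298_x_at from -0.125 to 0.111. The causes of these moves, the smaller number of arrays among them, were not tested. Umps 1451445_at lay at 5.48 to 6.83, above the filter of log2 4, and the part of background in its result was not tested.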
